A study of Mus musculus with 4 samples.

Results

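The fecal bacteria of mice that had not yet been dosed were described from the day 0 samples of an antibiotic study. A sample was taken as a member where the authors' deposited sample sheet gives its day as 0, which held for 107 of the 198 fecal samples in the composition table. All mice were wild-type C57BL6/J, aged 8 to 12 weeks, kept on standard chow under specific pathogen-free (SPF) conditions. Each was later given phosphate-buffered saline (PBS), or 2.5 mg of drug in 100 µl of PBS: ampicillin, metronidazole, neomycin, vancomycin, or the 4 combined (Mix). Doses went in by oral gavage (PO), into the peritoneum (IP) or into a vein (IV), 2 a day on 3 days and a last dose on day 4. The labels say that the mice were divided at random. The 18 group names used here (such as Mix PO) therefore say what a mouse received after the sample was taken, and each group held 5 to 6 samples. Cage and sex of the mice are not stated in these sources, so a difference between groups cannot be told apart from one between cages. All p-values, those of correlations included, set a result against the spread between these samples. They treat the samples as independent of each other, which could not be checked without the cages.

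Each library is a pool of copies of a short stretch (V4) of the 16S rRNA gene, the usual marker for naming bacteria, made by 30 to 35 cycles of PCR and sequenced on an Illumina MiSeq. Values are percent of reads, so a rise of one genus lowers the percent of the others and nothing is known of cell numbers. The number of reads behind a library was recovered from the common step of its values and ran from 2 to 41082, with a median of 7289 and a second lowest of 230. Of the 107 libraries, 24 held fewer than 1000 reads. The other 83, with 1039 reads or more and a median of 10623, are the set described unless all 107 are named. The depth filter removed libraries unevenly: 4 of the 6 Vancomycin IP libraries and 3 of the 6 Ampicillin PO libraries fell below it, and the groups kept 2 to 6 libraries. No pair of libraries agreed within sampling noise, in 159 pairs of the same group and 3244 pairs of different groups (chi-square test of recovered reads). In 104 of the 107 libraries the lowest value above 0 was worth 2 reads, so a taxon at 0 had 0 reads or may have had 1. At the median kept depth a count of 0 allows up to 0.0282% (3 reads) and a left-out read up to 0.0447% (4.74 reads, one-sided 95% Poisson limit), and such limits and all intervals cover counting error only, since PCR copies are not independent molecules.

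The stool of laboratory mice is dominated by anaerobes of the phyla Bacteroidota and Firmicutes. Among Bacteroidota, the family Muribaculaceae, long known as S24-7, ferments dietary and host glycans and is especially typical of mice, and Prevotella degrades plant polysaccharides. Among Firmicutes, Lachnospiraceae and Oscillospiraceae ferment fibre and mucus sugars, and several of their members make butyrate, a fuel of the gut epithelium. Names such as CAG-485, UBA7173 or COE1 are placeholder genera known mainly from genomes rather than cultures.

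The untreated community was made mostly of Prevotella and Muribaculaceae. Bacteroidota held 77.4% ± 15.0 of the reads (SD, n = 83), from 32.9% through a median of 80.1% to 98.4%. Firmicutes held 21.2% ± 14.5 (SD, n = 83), from 1.47% through a median of 18.1% to 64.4%. The 98.4% and the 1.47% came from the same library (Vancomycin IV replicate 6, 1563 reads), and the 32.9% and the 64.4% from another (Ampicillin PO replicate 2, 15724 reads). The Wilson 95% intervals of the Bacteroidota percent of these libraries were 97.6% to 98.9% and 32.1% to 33.6%, so counting error is small beside the distance between these libraries. With 1 day 0 library per mouse, differences between mice here include any that arose in library preparation. The ratio of Bacteroidota to Firmicutes reads had a median of 4.42, a lowest value of 0.510 and a highest of 66.9, and lay above 1 in 78 of 83 libraries. Bacteroidota were under 60% of reads in 12 libraries and over 90% in 19. Other phyla were minor, the largest being Deferribacterota, here the mucus dweller Mucispirillum, at 0.547% ± 0.671 (SD, n = 83), with reads in 71 of 83 libraries.

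**Figure D1:**
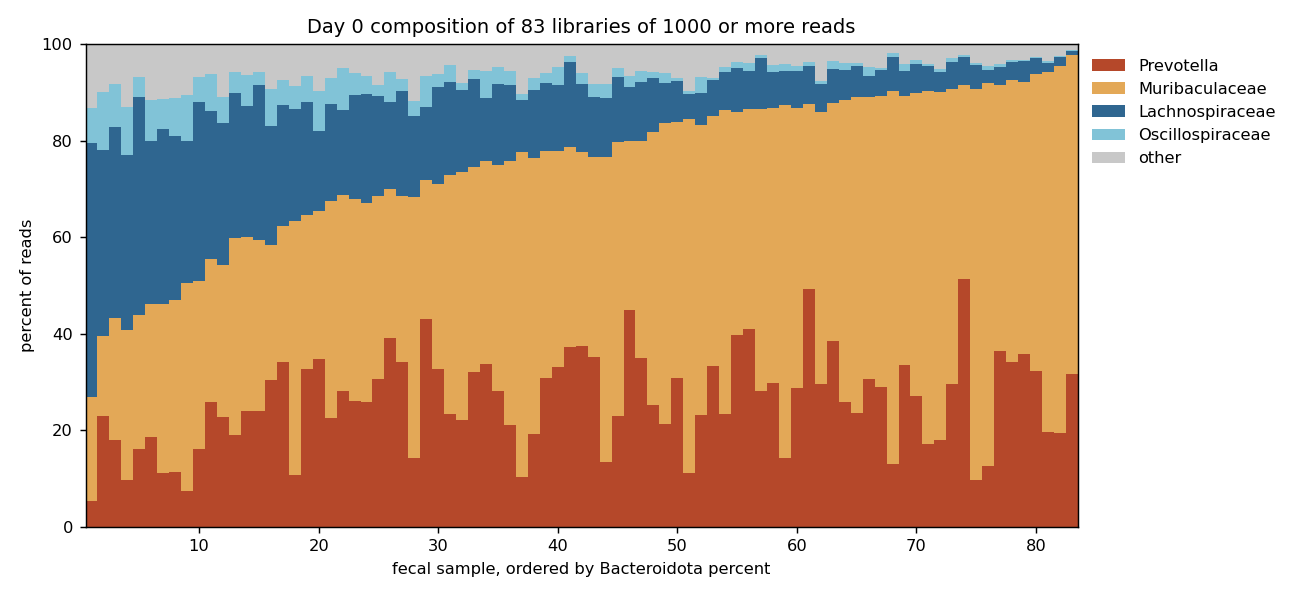
Percent of reads (vertical axis) held by Prevotella, Muribaculaceae, Lachnospiraceae, Oscillospiraceae and all other taxa in each of the 83 libraries, 1 bar per fecal sample, ordered by Bacteroidota percent. Bacteroidota run from 32.9% at the left to 98.4% at the right, with the largest step (12.1 points) after the first bar, while Prevotella varies from bar to bar along the whole order.

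Prevotella was the most abundant genus. It held 26.1% ± 9.91 of the reads (SD, n = 83), from 5.41% through a median of 26.1% to 51.3%, and was present in all 83 libraries. The lowest value came from Ampicillin PO replicate 2 (Wilson 95% interval 5.06% to 5.77%) and the highest from Vancomycin IP replicate 1 (50.0% to 52.5%). Nearly all of it was a single taxon, Prevotella sp902776665, whose lowest share of the genus in any library was 99.89%. Over all 107 libraries the mean of Prevotella was 27.9%, with a median of 28.8%.

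Reads with no genus name were pooled by their lowest named rank, and each pool was counted as a genus throughout. Such a pool may hold several genera. The 8 genera of Muribaculaceae, 1 of them such a pool, together held 48.9% ± 15.1 (SD, n = 83), from 16.6% through 46.9% to 81.1%. All 8 had reads in all 83 libraries. The most abundant was CAG-485, at 12.4% ± 4.88 (SD, n = 83; lowest 2.50%, median 11.7%, highest 27.9%). Duncaniella, a cultured mouse genus, held 9.53% ± 3.48 (SD, n = 83; lowest 2.35%, median 9.35%, highest 19.4%). Reads of the family with no genus name held 8.20% ± 2.90 (SD, n = 83; lowest 1.93%, median 7.88%, highest 16.1%). Paramuribaculum, also cultured from mice, reached a similar mean with a wider spread, 6.83% ± 3.53 (SD, n = 83; lowest 0.836%, median 6.11%, highest 18.9%). UBA7173 held 4.46% ± 2.21, Muribaculum 4.36% ± 1.82, UBA3263 2.18% ± 0.863 and CAG-873 0.959% ± 0.414 (SD, n = 83 for each). The ratio of Prevotella to the whole family ran from 0.119 through a median of 0.527 to 1.49, a range of 12.6-fold, and Prevotella exceeded Muribaculaceae in 10 of 83 libraries.

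Below the genus names the Muribaculaceae were mixtures. CAG-485 was mainly CAG-485 sp002493045, with 83.3% ± 11.5 of the genus (SD, n = 83), yet this share fell to 31.8% in 1 library and reached 97.8% in another. Duncaniella was split between Duncaniella dubosii (58.0% ± 9.08 of the genus), Duncaniella muris (24.6% ± 8.33) and Duncaniella sp001689575 (16.3% ± 7.12; SD, n = 83 for each), and all 3 were found in every library. Muribaculum intestinale (42.9% ± 12.9 of its genus) and Muribaculum gordoncarteri (35.0% ± 9.48) likewise coexisted in all 83 libraries (SD, n = 83). Paramuribaculum sp000431155 and Paramuribaculum intestinale held 42.6% ± 12.2 and 38.9% ± 9.62 of theirs (SD, n = 83). UBA3263 was 1 taxon throughout. Coexistence of several named taxa in each mouse was thus the rule in these genera, in contrast to the single Prevotella taxon. The table's taxon names are those the authors assigned, and 16S V4 reads can fail to separate close species.

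Lachnospiraceae were the third large part and the least even. The family held 15.7% ± 11.4 (SD, n = 83), from 0.960% through 13.2% to 52.7%, spread over 47 genera of which 4 were found in at least 90% of libraries. Reads with no genus name were the largest share, at 6.58% ± 5.94 (SD, n = 83; lowest 0.210%, median 4.72%, highest 26.8%). COE1 held 2.45% ± 2.64 (SD, n = 83; reads in 81 libraries, median 1.46%, highest 12.5%). UBA3282 held 1.14% ± 1.28, with a median of 0.638% and a highest of 6.16%, and Eubacterium_J 0.670% ± 0.843, with a median of 0.385% and a highest of 4.37% (SD, n = 83 for each). In these genera the SD was near or above the mean, and the median well below it, so a few mice carried much more than the rest. COE1 also varied in its named taxa: COE1 sp000403335 had reads in 46 of 83 libraries and COE1 sp000403215 in 61, and the share of the genus that each held ran from 0% to 100%. Such shares rest on few reads where COE1 was low, as at 0.243% of 1233 reads in Neomycin IP replicate 6.

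Oscillospiraceae held 3.12% ± 2.82 (SD, n = 83), from 0.116% to 12.0%, with 3 genera found in at least 90% of libraries. These were Dysosmobacter, which holds butyrate producers (1.07% ± 1.03, highest 5.13%), reads with no genus name (0.992% ± 0.999, highest 4.95%) and Lawsonibacter (0.637% ± 0.611, highest 2.31%; SD, n = 83 for each). Among the other Bacteroidota, Alistipes_A_871400 (Alistipes in what follows), of the Rikenellaceae, held 0.957% ± 0.698 and had reads in 81 libraries, and Odoribacter_865974 (Odoribacter), a maker of short-chain fatty acids, held 0.712% ± 0.576 in 80 (SD, n = 83 for each). Bacteroides, the genus most studied in the human gut, was minor here under the name Bacteroides_H, at 0.287% ± 0.354 (SD, n = 83; highest 2.86%). Cryptobacteroides held 0.232% ± 0.183 and reads of Dehalobacteriaceae with no genus name 0.403% ± 0.396 (SD, n = 83 for each).

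A core genus was defined as one with at least 1 recovered read in 90% or more of the 83 libraries. This gave 21 core genera of the 182 with any read at day 0: the 8 of Muribaculaceae, 5 other Bacteroidota and 8 Firmicutes. They include the pools of reads with no genus name of Muribaculaceae, Lachnospiraceae, Oscillospiraceae and Dehalobacteriaceae. Together the 21 core genera held 91.2% ± 5.35 of the reads (SD, n = 83), from 74.0% to 99.2%. Only 10 of them had reads in all 83 libraries: Prevotella, the 8 Muribaculaceae and the unnamed Lachnospiraceae, with 81.6% ± 11.8 of the reads (SD, n = 83). The number depends on depth. Over all 107 libraries 10 genera met the 90% rule, and after thinning each of the 83 libraries to 1000 reads 14 did.

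Core genera differed in how steady they were between mice. The coefficient of variation (SD over mean) was compared among the core genera with a mean of at least 0.5%. The 5 lowest values were those of the unnamed Muribaculaceae (0.354), Duncaniella (0.365), Prevotella (0.379), CAG-485 (0.393) and UBA3263 (0.396). The 5 highest were all of Firmicutes: Eubacterium_J (1.26), UBA3282 (1.13), COE1 (1.08), the unnamed Oscillospiraceae (1.01) and Dysosmobacter (0.965). The steadiest core genera were thus the abundant Bacteroidota, and the least steady were Lachnospiraceae and Oscillospiraceae. Counting error weighs more on rare genera and was not subtracted from these values.

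**Figure D2:**
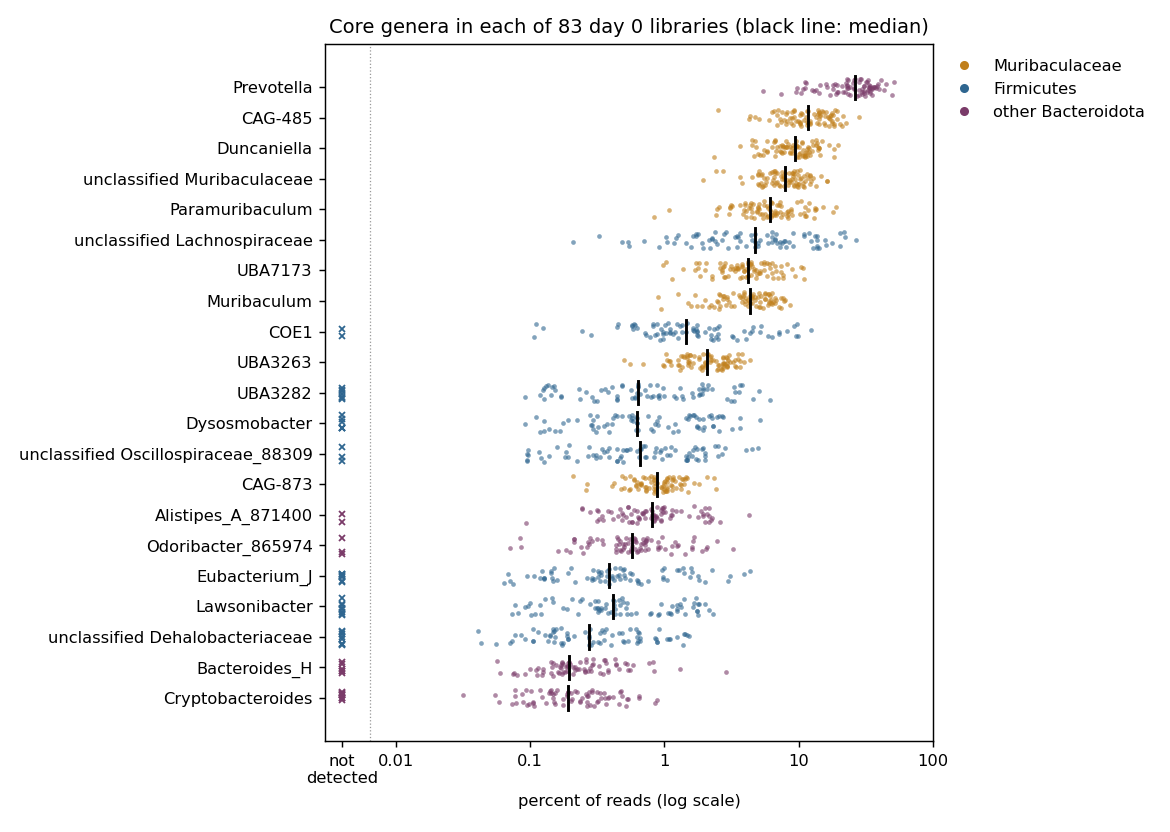
Percent of reads (log axis) of the 21 core genera in each of 83 libraries, 1 point per library, with the median as a black line and libraries without a read as crosses at the left. The 8 Muribaculaceae are never missing, with coefficients of variation of 0.354 to 0.517, though Paramuribaculum runs from 0.836% to 18.9%. COE1, UBA3282 and Eubacterium_J have coefficients of 1.08 to 1.26 and reads in 76 to 81 of the 83 libraries.

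Outside the core, 16 genera were present in 20 to 80% of libraries and reached 1% of reads in at least 1. Of these, 11 were Lachnospiraceae. CAG-510 had reads in 55 of 83 libraries, with a median of 0.471% where present and a highest value of 6.80% (Neomycin IV replicate 1). Acetatifactor, first cultured from mouse intestine, was found in 62 libraries and reached 5.80%, and C-53 was found in 54 and reached 4.52%. Lactobacillus, a lactic acid bacterium, was found in 49 and reached 3.65% in Vancomycin PO replicate 6, against a median of 0.0345% over all 83. Akkermansia, a mucin degrader, was found in 34 of 83 libraries and reached 1.91%. Parasutterella was found in 65 libraries, with a highest value of 1.68%. These 16 genera were named for their presence after the values were seen.

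Several groups known from mouse guts were rare or not detected. Segmented filamentous bacteria, which attach to the ileal wall and induce T helper 17 cells, were looked for under the names Arthromitus and Savagella, and no taxon with reads at day 0 carried either. Dwaynesavagella, another name for them that was found only after the values were seen, had reads in 10 of the 83 libraries (highest 0.0509%) and in 11 of all 107. Bifidobacteriaceae had reads in 3 of 83 libraries (highest 0.186%) and Enterobacteriaceae in 3 (highest 0.326%). Erysipelotrichaceae had reads in 28 (highest 0.254%). Desulfovibrionaceae, which reduce sulfate to hydrogen sulfide, were common but low, at 0.251% ± 0.229 (SD, n = 83) with reads in 74. Ruminococcaceae held 0.345% ± 0.299 (SD, n = 83) over 71 libraries. A list of genera known from reagents, skin and food had reads in 7 of 83 libraries, all of them Burkholderia, with a highest value of 0.730%. The leading families were those known from mouse stool, as labelled.

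Mice differed from each other along a range with no clear split into types. The mean Bray-Curtis distance between the genus profiles of libraries, which is 0 for equal profiles and 1 for profiles with no shared genus, was 0.308 over 3403 pairs, from 0.0763 to 0.715. The mean distance of a library to all others had an SD of 0.0574 (n = 83) and ran from 0.238 to 0.546. The farthest library was Ampicillin PO replicate 2, where Lachnospiraceae held 52.7%, Muribaculaceae 21.4% and Prevotella 5.41%. The second was Mix PO replicate 5 (mean distance 0.452), with 38.6% Lachnospiraceae and 12.0% Oscillospiraceae. Average-linkage clustering on these distances gave its highest mean silhouette, 0.335 on a scale where 1 means full separation, for a split into 72 and 11 libraries. The Bacteroidota percent of the 11 (32.9% to 65.2%) overlapped that of the 72 (56.7% to 98.4%), and the 11 came from 9 groups. The largest gap between neighbours in the order of Bacteroidota percent was 12.1 percentage points, between the lowest library and the next.

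The Shannon index of genera, which rises with the number and evenness of genera, was 2.58 ± 0.306 (SD, n = 83), from 1.89 through 2.56 to 3.40. The number of genera detected was 62.4 ± 21.6 (SD, n = 83), from 17 through 64 to 104. Both rose with depth. Against log10 of the recovered reads the number of genera had r = 0.903 (permutation p = 1e-05, the smallest that 100000 resamples can give; adjusted over 4 relations 4e-05; rho = 0.916, permutation p = 1e-05, n = 83), and r = 0.904 without the 2 libraries farthest from the median depth. The Shannon index had r = 0.349 (permutation p = 0.00136, adjusted 0.00272; rho = 0.370, permutation p = 0.00074, n = 83), and r = 0.393 without the 2 farthest libraries. Bacteroidota percent fell with depth, r = -0.264 (permutation p = 0.016, adjusted 0.0213; rho = -0.326, permutation p = 0.00282, n = 83), and r = -0.302 without the 2. With reads permuted within groups the adjusted permutation p for Bacteroidota was 0.0505 (r = -0.248, n = 83), while its rho of -0.322 passed (adjusted permutation p = 0.0152). Prevotella showed no relation past the threshold in the 83 (r = 0.0551, adjusted permutation p = 0.620, n = 83). Over all 107 libraries its r was -0.283 (adjusted permutation p = 0.0033), while its rho of -0.176 did not pass (adjusted permutation p = 0.0684).

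After each library was thinned to 1000 reads, the number of genera was 44.3 ± 11.1 (SD, n = 83). It still rose with the depth that the library had before thinning, r = 0.722 (permutation p = 1e-05, adjusted 2e-05, n = 83), and so did the Shannon index, r = 0.322 (adjusted permutation p = 0.00304, n = 83). Values worth 1 read were missing from nearly all libraries before thinning. Thinning can leave a genus with 1 read in a deep library, but hardly in one near 1000 reads. Metronidazole IP replicate 2, with 1039 reads, had 34 genera before and after. The thinned numbers were thus not on equal terms, and cannot show whether shallow libraries held fewer genera per 1000 reads. How much of the relation comes from this was not tested.

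**Figure D3:**
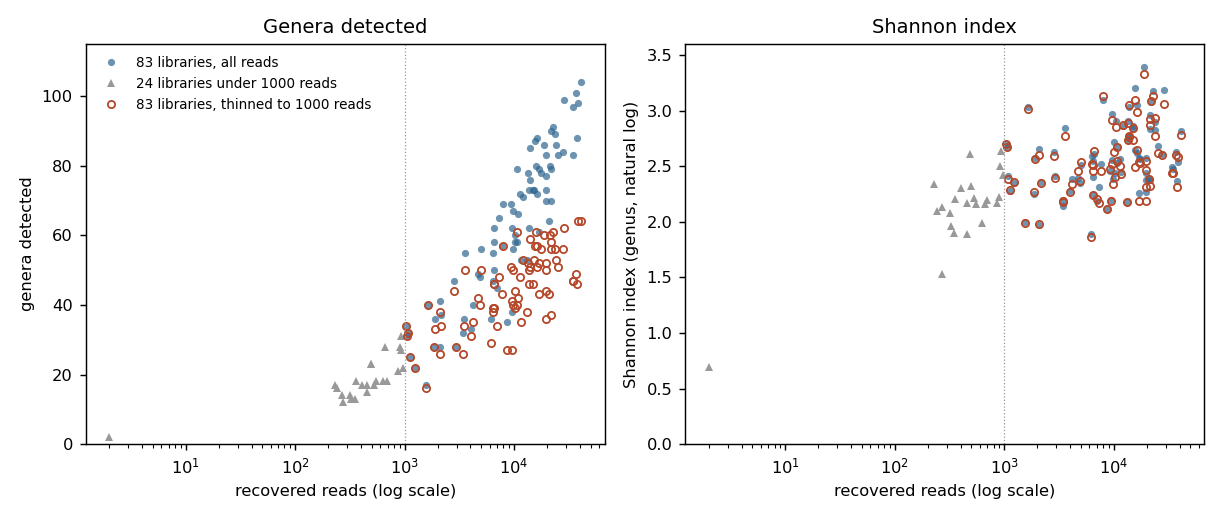
Genera detected (left) and Shannon index (right) against recovered reads on a log axis, for 83 libraries with all reads (filled), the same libraries thinned to 1000 reads (open) and 24 libraries under 1000 reads (triangles). The thinned counts lie between 16 and 64 and still climb with depth, with r = 0.722.

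Family totals were related across mice. Across the 83 libraries Lachnospiraceae and Oscillospiraceae percent rose together, r = 0.801 (permutation p = 1e-05, adjusted over 4 relations 2e-05; rho = 0.863; r = 0.834 without 2 libraries; n = 83). Muribaculaceae and Lachnospiraceae percent opposed each other, r = -0.792 (permutation p = 1e-05, adjusted 2e-05; rho = -0.831; r = -0.792 without 2 libraries; n = 83). Prevotella also ran against both large families. Its r was -0.362 with Lachnospiraceae (adjusted permutation p = 0.00088; rho = -0.222; n = 83) and -0.254 with Muribaculaceae (adjusted permutation p = 0.0203; rho = -0.238; n = 83). Within groups the last of these did not pass (r = -0.198, adjusted permutation p = 0.12, n = 83), whereas the other 3 did, with r = 0.770, -0.781 and -0.425 in the order given. Percent of reads sum to 100 in each library, which alone pushes large parts against each other, and these 4 relations were chosen after values had been seen.

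Relations between single core genera were computed on log2(percent + 0.01). Each library was centred on its mean over the 21 core genera, a usual guard against the fixed sum. Of the 210 pairs, 163 passed an adjusted permutation p of 0.05, 73 of them positive (34.8% of all pairs) and 90 negative (42.9%). Since the centre itself moves with the variable genera, the same pairs were also computed without centring, where 70 were positive (33.3%) and 74 negative (35.2%). The spread of the log2 ratio of 2 genera, which needs no centre, is given beside them.

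Pairs followed taxonomy. Within Muribaculaceae all 28 pairs were positive, with a median r of 0.818, and 26 of 28 without centring, with a median of 0.544. Among the 8 Firmicutes 24 of 28 pairs were positive (median r 0.399), and all 28 without centring (median 0.611). Between the blocks all 64 pairs were negative (median r -0.599), and 61 of 64 without centring (median -0.489). The shares to read these against are the 34.8% and 42.9% of all pairs above. Over all 107 libraries, shallow ones included, the counts were lower: 21 of 28 positive within Muribaculaceae (median r 0.758), 12 of 28 within Firmicutes (0.183) and 47 of 64 negative between them (-0.482). The median SD of the log2 ratio was 0.621 within Muribaculaceae, 1.73 within Firmicutes and 2.34 between them. By this measure Muribaculaceae kept their proportions to each other most closely. All 8 had reads in all 83 libraries, but of the 8 Firmicutes only the unnamed Lachnospiraceae did, and Lawsonibacter had reads in 75. A library without a read enters the ratio at a fixed low value, which can widen the spread. How much of the wider spread comes from such zeros and from low counts was not tested. The choice of centre bears on the correlations within Muribaculaceae. When libraries were centred on the 10 genera present in all, 8 of which are Muribaculaceae, only 9 of their 28 pairs were positive and 1 was negative (median r 0.111). The Firmicutes pairs (28 of 28 positive) and 42 of the 64 pairs between the blocks kept their direction past the threshold.

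**Figure D4:**
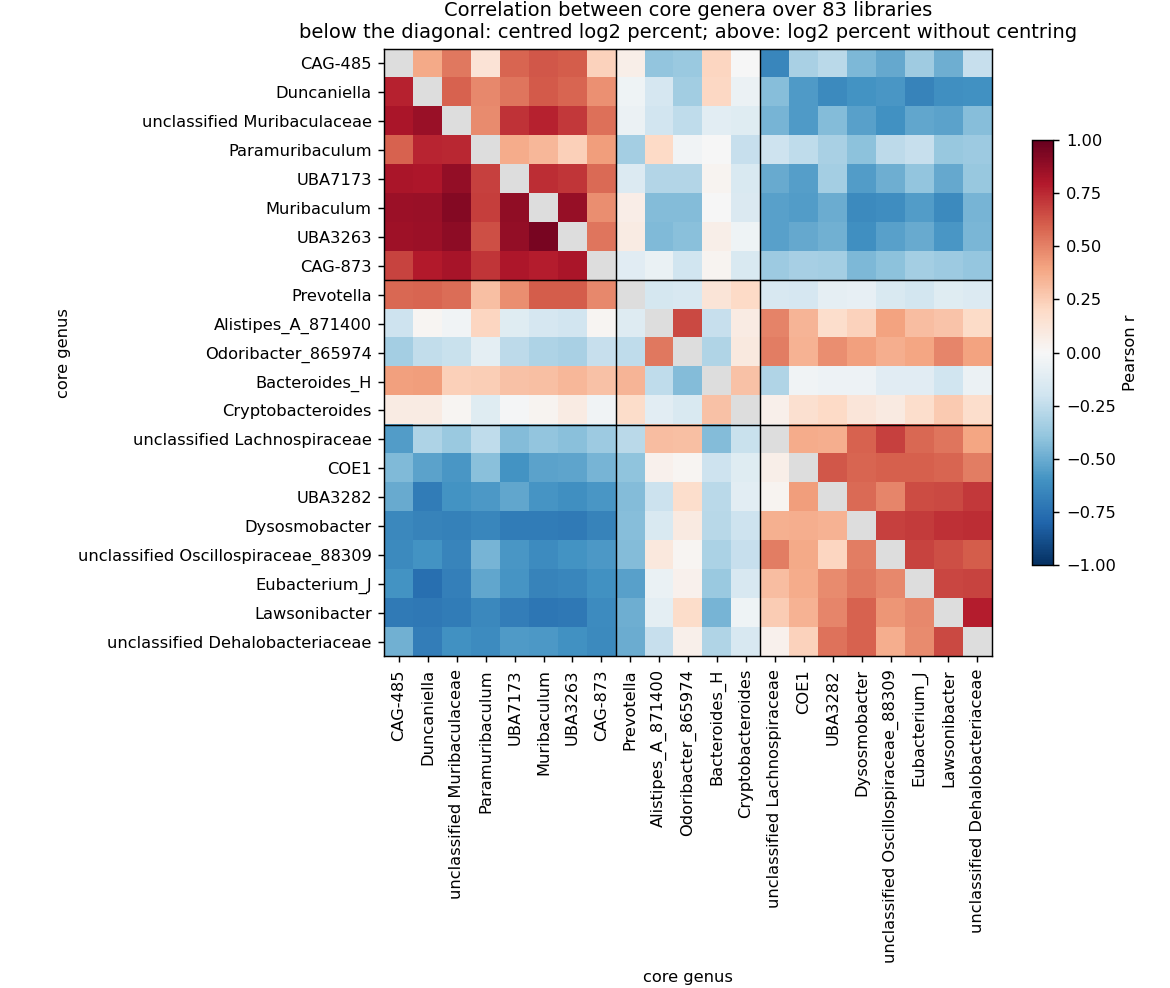
Pearson r between the 21 core genera over 83 libraries, blue for negative and red for positive, below the diagonal on centred and above it on uncentred log2 percent. Black lines part the Muribaculaceae, the other Bacteroidota and the Firmicutes, and the red corner blocks and blue off-diagonal blocks show on both sides.

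The closest pair was Muribaculum with UBA3263, r = 0.950 (adjusted permutation p = 2.1e-05; rho = 0.940; 0.941 without 2 libraries; 0.869 without centring; n = 83). The SD of their log2 ratio was 0.352, the lowest of all 210 pairs. Next came the unnamed Muribaculaceae with Muribaculum, r = 0.916 (0.768 without centring), and with UBA3263, r = 0.894 (0.706 without centring). UBA7173 followed with Muribaculum (r = 0.887), the unnamed Muribaculaceae (0.883) and UBA3263 (0.878), with 0.737, 0.723 and 0.716 without centring. Duncaniella completed the 8 highest, with the unnamed Muribaculaceae (0.864, and 0.590 without centring) and with Muribaculum (0.861, and 0.617). The 8 highest pairs thus involved only 5 genera of 1 family, with the pool of unnamed Muribaculaceae counted among them. The adjusted permutation p was 2.1e-05 for each of the 8 (n = 83), from the smallest p the resamples can give. Paramuribaculum stood most apart in the family: with CAG-485 it had the lowest r, 0.586, which was 0.134 without centring.

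The 8 lowest pairs each joined a genus of Muribaculaceae to a genus of Firmicutes. Duncaniella with Eubacterium_J had r = -0.750 (adjusted permutation p = 2.1e-05; rho = -0.743; -0.726 without 2 libraries; -0.668 without centring; n = 83). Lawsonibacter supplied 5 of the 8, opposite Muribaculum (-0.723), UBA3263 (-0.711), Duncaniella (-0.711), CAG-485 (-0.707) and the unnamed Muribaculaceae (-0.702), with -0.492 to -0.635 without centring. Dysosmobacter supplied the other 2, opposite UBA3263 (-0.710) and Muribaculum (-0.700). Their adjusted permutation p was 2.1e-05 for each (n = 83). All 16 pairs kept their sign and passed the threshold in all 107 libraries, within groups, after thinning, by Spearman correlation and without centring. With the centre on the 10 genera present in all, Duncaniella with the unnamed Muribaculaceae (r = 0.0685), Duncaniella with Muribaculum (0.139) and CAG-485 with Lawsonibacter (-0.189) did not pass.

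Among the Firmicutes the closest pair was Lawsonibacter with the unnamed Dehalobacteriaceae, r = 0.660 and 0.789 without centring. Prevotella went with Muribaculaceae or with neither block, depending on the scale. On centred values it was positive with all 8 Muribaculaceae (median r 0.56) and negative with all 8 Firmicutes (-0.43). Without centring 0 of these 8 were positive and 1 was negative for Muribaculaceae (median -0.05), and 0 of 8 passed for Firmicutes (median -0.15). Alistipes and Odoribacter, both Bacteroidota, did not follow Muribaculaceae: 0 of 8 pairs of each were positive on either scale, and 6 of 8 were negative for Odoribacter on both. With Firmicutes 1 of 8 pairs of each was positive when centred. Without centring 8 of 8 were for Odoribacter (median r 0.406) and 5 of 8 for Alistipes (0.296). Bacteroides_H was positive with 8 of 8 Muribaculaceae when centred and with 0 of 8 without centring. Alistipes and Odoribacter rose together (r = 0.529, and 0.659 without centring), but r fell to 0.250 without 2 libraries and rho was 0.335, so much of this pair rests on those libraries.

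Depth differed with several of these genera. Over the 83 libraries the correlation of log2 percent with log10 of the reads was 0.439 for Eubacterium_J, 0.422 for Lawsonibacter and 0.444 for Cryptobacteroides, against -0.323 for Muribaculum and -0.325 for UBA3263, given as a description over points that share the depth measure. With depth removed by regression from each genus, 171 of 210 pairs passed, and all 28 Muribaculaceae pairs and all 64 between the blocks kept their sign past the threshold.

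The later groups were compared before the first dose, to show how even they were at the start. Libraries of the same later group lay at a mean Bray-Curtis distance of 0.291 and those of different groups at 0.309. The share of the variation in composition that went with the 18 groups was 25.5%, where random labels give 20.7% on average (100000 permutations of the labels over Bray-Curtis distances, one-sided, permutation p = 0.0686, adjusted over 3 labels 0.103). With the antibiotic alone it was 9.62% against 6.10% (permutation p = 0.0433, adjusted 0.103), and with the route alone 3.65% against 2.44% (permutation p = 0.138, adjusted 0.138). None passed. Leaving out Ampicillin PO replicate 3 brought 2 of them past it, the groups (29.8%, adjusted permutation p = 0.0177) and the antibiotic (10.7%, adjusted permutation p = 0.0304). The Shannon index did not differ past the threshold by group, antibiotic or route (adjusted permutation p = 0.465 for each), nor did depth (adjusted permutation p = 0.434, 0.462 and 0.735).

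Bacteroidota percent also passed no such test (adjusted permutation p = 0.332, 0.229 and 0.289 for group, antibiotic and route). Its group means still ran from 57.2% ± 31.3 in Ampicillin PO (SD, n = 3) and 64.5% ± 12.4 in Mix IV (SD, n = 6) to 89.7% ± 3.30 in Neomycin IP (SD, n = 4). The 3 Ampicillin PO libraries were at 32.9%, 46.2% and 92.4%, so that mean stands for very unlike mice. The PBS groups lay at 82.6% ± 7.58 (PO, n = 4), 85.1% ± 8.81 (IP, n = 6) and 83.2% ± 9.53 (IV, n = 5; SD for each).

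By genus, 0 of 91 genera present in at least 20% of libraries differed between the 18 groups in limma's F test with Benjamini-Hochberg adjustment (0.0% called), and 11 had an unadjusted p under 0.05. The smallest adjusted p was that of Velocimicrobium, a genus of Lachnospiraceae (0.211, limma). It had reads in 33 of 83 libraries and its presence was uneven. All 5 Metronidazole PO libraries carried it, at 0.0853% to 1.05%, and 4 of 6 Mix IV libraries did, up to 3.81%. No library had a read of it in 6 groups: PBS PO (n = 4), Ampicillin IV, Metronidazole IV and Mix IP (n = 5 each), Ampicillin PO (n = 3) and Vancomycin IP (n = 2). With all 107 libraries in the fit Velocimicrobium passed (adjusted p = 0.00216, limma), as the 1 genus called. The 24 libraries this adds held fewer than 1000 reads, and it had reads in 34 of the 107. A count of 0 allows up to 0.309% at 971 reads and 1.30% at 230 reads. Its median where present in the 83 was 0.527%, so shallow libraries can miss it. What this adds to the pass was not tested.

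Acetitomaculum, Lactobacillus, CAG-485 and Schaedlerella came next, each with an adjusted p of 0.272 (limma). CAG-485 was at 17.5% ± 2.81 in PBS IP (SD, n = 6; lowest 14.1%, highest 22.5%) and at 7.61% ± 2.25 in PBS PO (SD, n = 4; lowest 5.04%, highest 10.4%), with no overlap between these 2 control groups before dosing. It was the only 1 of the 91 tested genera (1.1%) whose ranges in these 2 groups did not overlap, and the pair of groups was picked after the values were seen. Lactobacillus stood out in Vancomycin PO (0.977% ± 1.78, SD, n = 4), where the 3.65% of replicate 6 made most of the mean and the median was 0.109%. Without Ampicillin PO replicate 3, 1 genus passed, Acetitomaculum.

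Enterocloster, a genus of Lachnospiraceae chosen here after its values were seen, had reads in 27 of the 68 libraries of mice that later received an antibiotic and in 0 of the 15 of mice that later received PBS. No other genus of the 91 tested was without a read in all 15 PBS libraries (1 of 91, 1.1%). Enterocloster also had no read in any library of Ampicillin IV or Metronidazole IV (n = 5 each), so 5 of the 18 groups were without it. Its adjusted p over the groups was 0.272 (limma). The median depth of the PBS libraries was the greater, at 13942 against 9982 reads. The highest value was 1.05% in Mix IV, and Metronidazole PO had it in 4 of 5 libraries. Enterocloster and Velocimicrobium often went together: Enterocloster had reads in 18 of the 33 libraries with Velocimicrobium (54.5%) and in 9 of the 50 without (18.0%). The libraries with Velocimicrobium were deeper, with a median of 13457 against 9050 reads, and the part of depth in this was not tested.

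**Figure D5:**
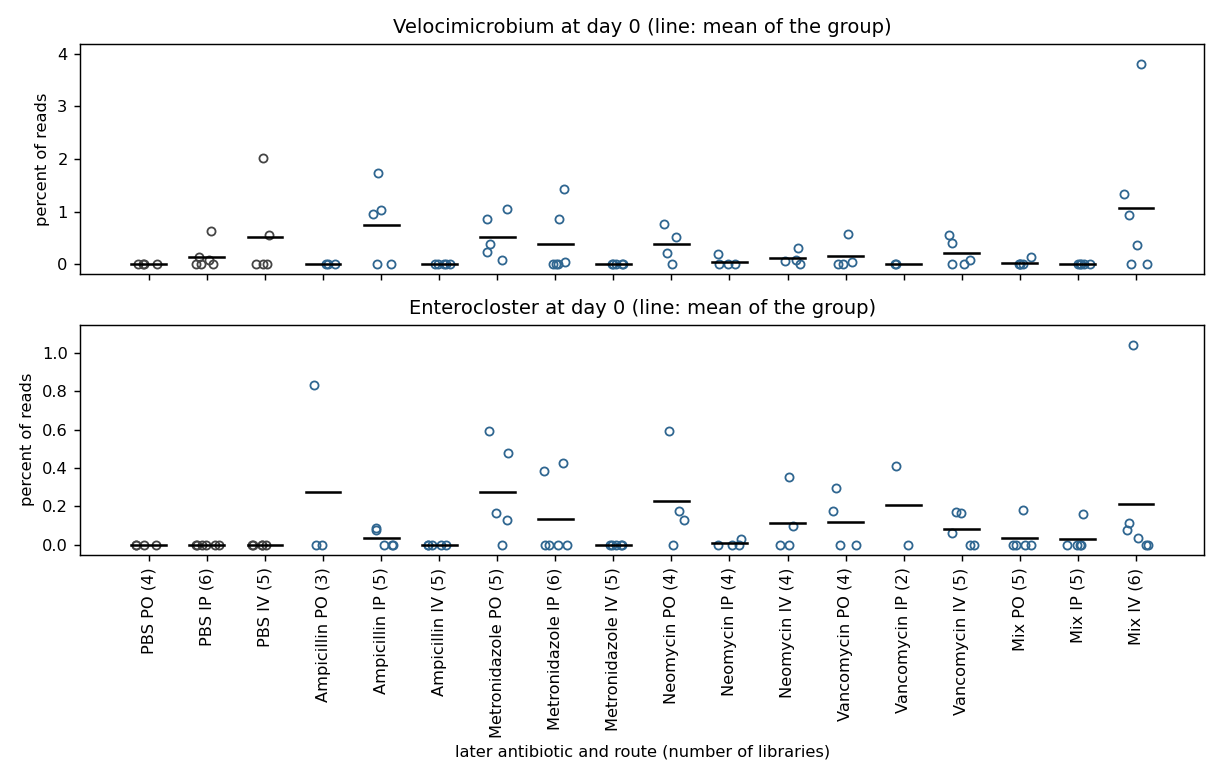
Percent of reads of Velocimicrobium (top) and Enterocloster (bottom) at day 0 in each of the 83 libraries, by the antibiotic and route given later, with the group mean as a line and the number of libraries in brackets. Enterocloster lies at 0 in all 15 PBS libraries and in all libraries of Ampicillin IV and Metronidazole IV. Velocimicrobium is found in all 5 Metronidazole PO libraries and in none of the 4 PBS PO ones.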

How the data were processed

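In the composition table deposited by the authors the signal of each library was scaled to sum to 100000, per the deposited values, over taxa of up to 7 ranks. The tools and taxonomy behind it were not given in the sources used here. All 4 GEO records are read files of 2 sequencing runs, so groups came from the deposited sample sheet. All day 0 libraries were of 1 run. Reads were recovered as the largest step of which all values of a library are whole multiples (100% of nonzero values, within 0.02 reads or 1e-05 of the value). Empty cells were read as 0. Levels are percent of reads by genus. Group tests used limma 3.58.1 (R 4.3.3) on log2(percent + 0.01), and 100000 permutations in numpy 2.4.6. p-values were adjusted by Benjamini-Hochberg with a threshold of 0.05. The scripts were tested on simulated data. Named were the 10 most abundant genera, core genera, the 5 steadiest and 5 least steady core genera, the 5 smallest F-test p-values, 8 pairs at each end and list members. Samples, lists and tests were chosen with earlier results of these data known. The 91 day 4 samples were not used here.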

Additional observations from a re-analysis of the deposited data

Results flagged for a closer look

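Dixon's test for a sample far from the rest of its group was run on 48 sets of values, and 2 samples passed it, where chance alone flags about 1 in 20 sets. In Mix PO the Bacteroidota percent of replicate 5 was 45.0%, with the nearest of the other 4 libraries at 82.7%. In Neomycin IV the Bacteroidota percent of replicate 1 was 61.5%, with the nearest of the other 3 at 84.6%. The first library held 21444 reads and the second 9685.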

How the results depend on the processing

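The uncentred, always-present-centre, depth-regressed and larger-cluster pair counts and the limit of 2000 reads were alternatives chosen after seeing the data. The number of core genera was 10 in all 107 libraries, 10 with presence in 100% of libraries, 53 with presence in 50%, and 9 as families. At family rank the mean distance between mice was 0.250 and the mean Shannon index 1.31; the centred log2 Euclidean distance, on another scale, was 23.4. The count of genera that differed between groups was 1 in all 107 libraries and 2 with no filter on rare genera (Gracilibacter and Lacrimispora, each with reads in 1 of 83 libraries, named after their values were seen). Over all 107 libraries 116 pairs passed, 44 of them positive, and with the centre on genera present in every library 123 passed, 57 of them negative. Leaving out each of the 83 libraries in turn gave distances of 0.302 to 0.310, Shannon indices of 2.57 to 2.59 and 156 to 168 pairs. It gave 0 to 1 genera, with 1 only without Ampicillin PO replicate 3. The share of variation in composition ran from 0.243 to 0.298 by group, 0.0847 to 0.107 by antibiotic and 0.0317 to 0.0440 by route. The share in the Shannon index ran from 0.173 to 0.290, 0.0554 to 0.119 and 0.0156 to 0.0340. Replicate numbers are shared across groups but did not pair samples (mean correlation of deviations 0.00927 for the same number, -0.00187 for different ones). With the replicate block the group share of composition stayed 0.255 (adjusted permutation p = 0.0826) and 0 genera passed in limma. The planned count model (edgeR) was not run, since the table holds scaled values. The cause of these changes was not tested.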
